A study of Mus musculus with 4 samples.

Results

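Annexins are proteins that bind acidic phospholipids in the presence of calcium, and they link membranes to one another, to the cytoskeleton and to partner proteins of the S100 family. They take part in membrane repair, in exocytosis and endocytosis and in inflammation. ANXA2 has long been studied in human hepatocellular carcinoma. YTHDF1 reads N6-methyladenosine, a mark on mRNA, in the cytoplasm and is known for promoting translation, and USP5 is a protease that removes and disassembles ubiquitin chains.

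The 9 annexin genes described here, Anxa1 to Anxa8 and Anxa11, were picked by Ensembl ID from the 53465 IDs of the deposited count table. All 9 were listed in it and all 9 passed the filter of a mean of at least 1 CPM (reads scaled to a common library size), as did 12920 genes in all. Anxa8 was the reason for choosing the family, because its counts were higher with the Usp5 guide than with the control guide in earlier results on these libraries. Its ratios between the guides are therefore given as a description. The other 8 genes were taken as its relatives by name.

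The libraries came from Hepa 1-6 cells, a mouse hepatocellular carcinoma line. They were made from cells with a guide for Usp5 (labelled sgUsp5, genotype Usp5 Knockdown) and from cells with a control guide (labelled sgcontrol, genotype WT). From each, 1 library held the RNA recovered by RNA immunoprecipitation (RIP) with an antibody to YTHDF1, and 1 held the input, taken as 10% of the lysate before precipitation. This gave 4 groups of 1 library: Usp5-guide RIP (29898171 counts), Usp5-guide input (31751069 counts), control RIP (33941019 counts) and control input (30804293 counts). The design addressed which RNAs YTHDF1 binds and whether this differs with Usp5. With 1 library per group there was no replicate check on the difference between the guides, and no p-value is given for it. No precipitate with a control antibody was used here, so recovery with YTHDF1 and recovery with the beads cannot be told apart. Of the IDs, only those of the 9 annexins came with gene names here. The Usp5 transcript as a check of the guide, the liver markers of the cells and the partner genes of the annexins were therefore not analysed here.

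The genes lie on 7 chromosomes of the mouse genome (build GRCm38.p6 of RefSeq, the patched form of mm10). Anxa8 (ENSMUSG00000021950) spans chr14:34085979-34100571, on the same chromosome as Anxa11 (ENSMUSG00000021866, chr14:25842127-25886804) and Anxa7 (ENSMUSG00000021814, chr14:20455261-20480133). Anxa1 (ENSMUSG00000024659) is at chr19:20373434-20390671, Anxa2 (ENSMUSG00000032231) at chr9:69453683-69491792 and Anxa3 (ENSMUSG00000029484) at chr5:96793385-96845968. Anxa4 (ENSMUSG00000029994) is at chr6:86736840-86793634, Anxa5 (ENSMUSG00000027712) at chr3:36448923-36475887 and Anxa6 (ENSMUSG00000018340) at chr11:54978953-55033471.

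RefSeq's promoter table held 7 of the 9 genes, all but Anxa3 and Anxa6. The 250 bases before the start of Anxa8, the gene whose counts differed most between the guides, are shown beside those of Anxa2, the annexin with the most reads, whose counts hardly differed. They lie at chr14:34085729-34085978 and chr9:69453433-69453682, both on the plus strand of GRCm38.p6. Capitals mark matches on either strand to 4 motifs. The TATA box was searched as TATAAA and the AP-1 site, where Fos and Jun proteins can bind, as TGAGTCA. The GC box, known from Sp1, was searched as GGGCGG and the E-box as CANNTG, and no motif overlapped another here.
Anxa8: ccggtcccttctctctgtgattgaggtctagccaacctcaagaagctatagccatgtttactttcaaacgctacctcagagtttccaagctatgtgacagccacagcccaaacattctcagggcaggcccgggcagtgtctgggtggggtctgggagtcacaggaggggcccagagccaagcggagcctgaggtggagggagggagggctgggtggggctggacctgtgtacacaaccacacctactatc
Anxa2: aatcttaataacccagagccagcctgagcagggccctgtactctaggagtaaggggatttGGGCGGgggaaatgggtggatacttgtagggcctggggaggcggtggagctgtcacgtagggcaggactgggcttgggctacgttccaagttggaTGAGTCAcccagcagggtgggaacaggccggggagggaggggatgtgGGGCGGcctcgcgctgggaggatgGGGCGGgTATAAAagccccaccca

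The Anxa8 stretch held 0 matches to any of the 4 motifs and 4 CpG dinucleotides. One of the 2 listed stretches of Anxa4 (chr6:86793585-86793834), a gene whose counts differed little between the guides, also held 0 matches, so their absence does not set Anxa8 apart. The Anxa2 stretch held 1 TATA box 17 bases before the start, 1 AP-1 site 95 bases before it, 3 GC boxes and 9 CpG dinucleotides. Among 32851 RefSeq promoters of 250 bases, 12.4% held the TATA box, 4.46% the AP-1 site, 32.7% the GC box and 66.2% the E-box. The median promoter had 6 CpG dinucleotides. A match describes letters and not a bound site, and no binding to DNA was measured here.

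Together the 9 annexins took 0.138% of all counts in the Usp5-guide RIP, 0.200% in the Usp5-guide input, 0.137% in the control RIP and 0.178% in the control input. The levels below are CPM after TMM normalisation, a scaling that takes most genes as equal between libraries. Transcript lengths were not used here, so the levels of different annexins are not compared with each other. In bulk RNA, fewer cells with a transcript and less of it per cell cannot be told apart.

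**Figure D1:**
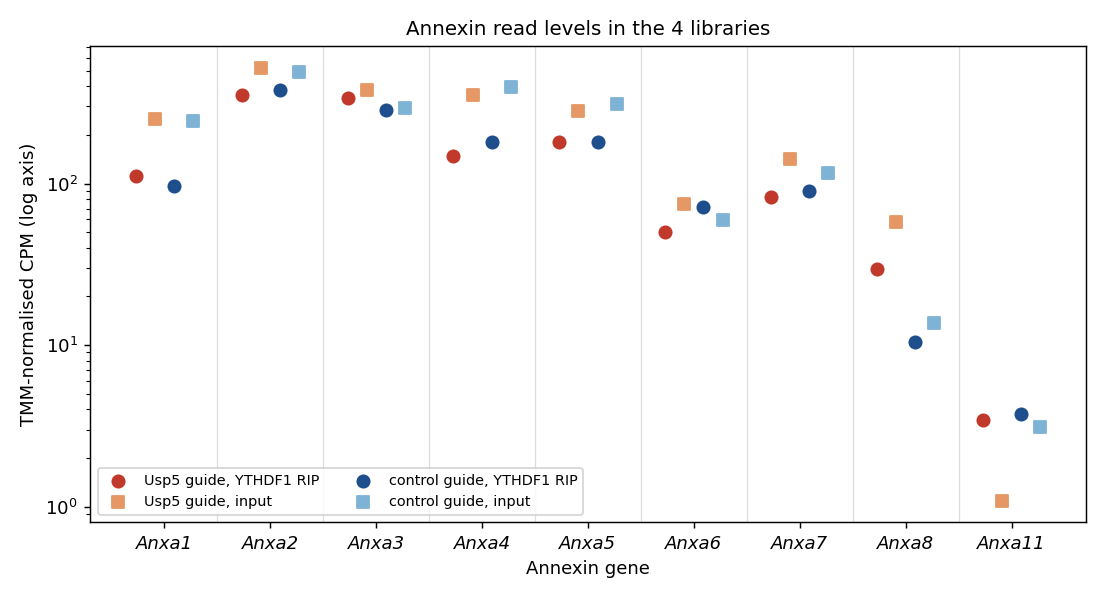
TMM-normalised CPM (log axis) of each annexin gene in the 4 libraries, with 1 point per library, circles for the YTHDF1 RIP and squares for the input. Anxa8 is the gene whose Usp5-guide points (57.5 CPM in the input, 29.5 CPM in the RIP) stand clear of the control points (13.7 and 10.5 CPM), and Anxa11 is the gene with the fewest reads.

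Anxa8, an annexin linked to late endosomes and known from squamous epithelia, had higher counts with the Usp5 guide in both fractions. It had 1770 reads in the Usp5-guide input, against 390 reads in the control input, or 57.5 and 13.7 CPM. It had 935 reads in the Usp5-guide RIP, against 375 in the control RIP, or 29.5 and 10.5 CPM. Both Usp5-guide libraries thus lay above both control libraries. The RIP and the input of each guide came from the same lysate, so the fractions are not independent repeats. The Usp5-guide level was 4.21-fold higher in the inputs, a log2 ratio of 2.07 with a 95% counting interval of 1.91 to 2.24. Between the precipitates it was 2.80-fold higher, which is 1.49 on the log2 scale (1.31 to 1.67).

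This interval (Clopper-Pearson, from how a gene's reads divide over a pair of libraries) covers counting error only, and PCR copies of a molecule count as separate reads. Genes scattered far more than counting allows: between the inputs the typical squared deviation was 57.7 times the binomial variance at a mean log2 CPM of 0 to 6 and 102 times above 6. Between the RIP libraries it was 18.4 and 47.5 times. Intervals were therefore also widened by these values, which contain any effect of the guide. The widened intervals of Anxa8 were 0.85 to 3.53 in the inputs and 0.72 to 2.31 in the RIP libraries.

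Genes were counted where the ratio reached 2-fold and the interval left out no difference. In the inputs 1 annexin, Anxa8, was higher and 1, Anxa11, was lower by the counting interval, where 12.4% of all genes compared were higher and 12.1% lower. In the RIP libraries 1 annexin, Anxa8, was higher and 0 were lower, where 4.55% of all genes were higher and 4.64% lower. By the widened intervals Anxa8 was counted in both pairs and Anxa11 in neither. By that rule 0.797% of all genes were higher and 0.921% lower in the inputs, and 0.573% were higher and 0.619% lower in the RIP libraries. These shares depend on abundance. At a mean log2 CPM of 4 to 5, the range that holds Anxa8 (4.48), 1.36% of 1840 genes were higher in the inputs and 0.489% in the RIP libraries by the widened intervals. The 2 pairs share their lysates. In both at once, 4 of 12920 genes were higher and 10 lower by the widened intervals, with Anxa8 among the 4. By the counting interval 203 genes were higher in both and 217 lower. Because Anxa8 was picked for these ratios, its place among them is not a separate result.

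**Figure D2:**
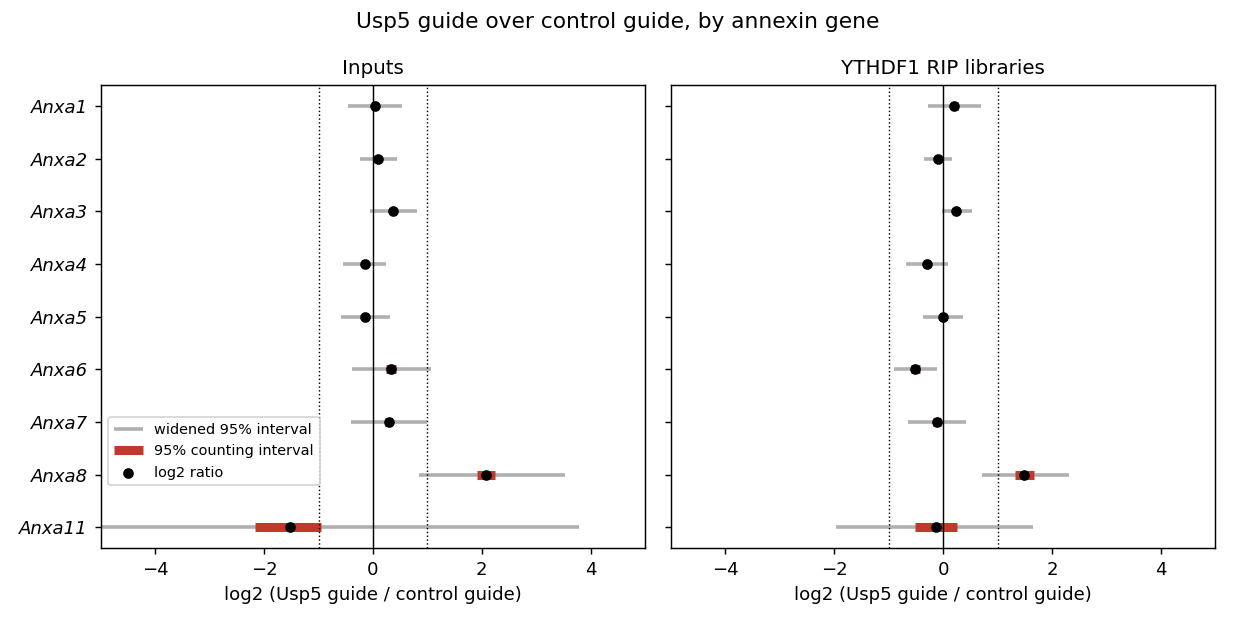
Log2 ratio of Usp5-guide over control counts for each annexin in the inputs (left) and in the RIP libraries (right), with black points for the ratio, thick bars for the 95% counting interval, thin bars for the widened interval and dotted lines at 2-fold. The widened intervals of Anxa8 exclude 0 in both panels, and that of Anxa11 in the inputs runs past the left edge of the axis to -10.93.

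**Figure D3:**
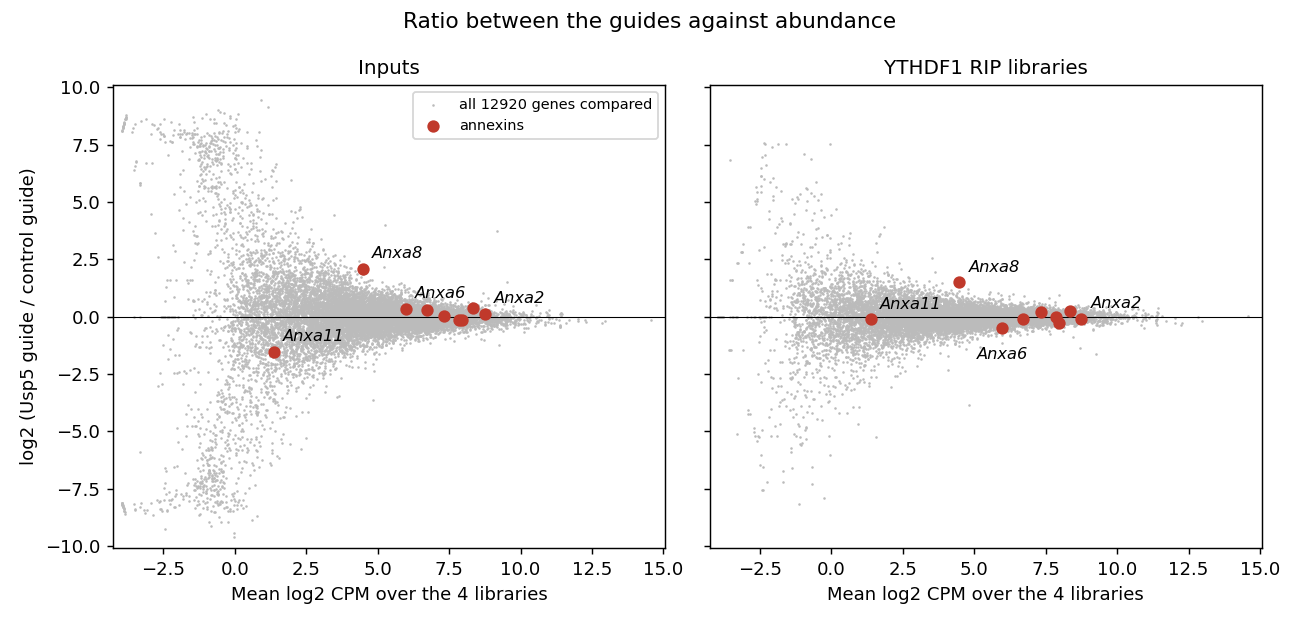
Log2 ratio of Usp5-guide over control counts against the mean log2 CPM over the 4 libraries, for the inputs (left) and the RIP libraries (right), with all 12920 genes compared in grey and the 9 annexins in red. The spread of all genes widens towards low abundance, and more so in the inputs, and Anxa8 lies above the bulk of genes of its abundance in both panels while Anxa11 in the inputs lies where the spread is wide.

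Anxa8 took a larger part of the annexin reads with the Usp5 guide, a measure that needs no scaling between libraries. It made up 2.79% of the reads of the 9 genes in the Usp5-guide input (95% Wilson interval 2.66 to 2.92), against 0.712% in the control input (0.645 to 0.786). In the RIP libraries it made up 2.27% with the Usp5 guide (2.13 to 2.42), against 0.808% with the control guide (0.730 to 0.893). These intervals too cover counting error only. The shares come from the same reads for which Anxa8 was picked, so they are a description and not a separate result.

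Anxa11, which carries a long disordered N-terminal part and is known for tethering RNA granules to lysosomes, had few reads. It had 33 reads in the Usp5-guide input, against 89 in the control input, or 1.09 and 3.13 CPM. It had 109 reads in the Usp5-guide RIP, against 134 in the control RIP, or 3.46 and 3.77 CPM. The Usp5-guide input thus stood apart from the other 3 libraries, which lay close together. Its log2 ratio between the guides was -1.53 in the inputs (counting interval -2.16 to -0.95) and -0.13 in the RIP libraries (-0.51 to 0.25). The widened input interval, -10.93 to 3.79, held no difference. At a mean log2 CPM of 1 to 2, the range that holds Anxa11, 24.6% of 1053 genes were counted as lower between the inputs by the counting interval and 0.190% by the widened one.

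For the other 7 annexins the ratios between the guides stayed within 1.42-fold. In the inputs their log2 ratios ran from -0.15 for Anxa4 to 0.37 for Anxa3, and all 7 widened intervals held no difference. In the RIP libraries they ran from -0.51 for Anxa6 to 0.24 for Anxa3. The median over all 9 annexins was 0.10 in the inputs, where that of all genes was -0.01, and -0.09 in the RIP libraries, where that of all genes was also -0.01.

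Anxa3, an annexin known for promoting membrane fusion, lay above 0 in both fractions. It had 11664 reads in the Usp5-guide input, against 8344 in the control input, or 379 and 292 CPM. It had 10733 reads in the Usp5-guide RIP, against 10224 in the control RIP, or 339 and 287 CPM. The Usp5-guide library was the higher one in each pair, with log2 ratios of 0.37 in the inputs and 0.24 in the RIP libraries. The widened intervals, -0.05 to 0.80 and -0.03 to 0.52, both reached just below 0.

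Anxa6, whose core of annexin repeats is duplicated and which is known for work on cholesterol and endocytosis, had ratios on opposite sides of 0 in the 2 fractions. It had 2308 reads in the Usp5-guide input, against 1705 in the control input, or 75.0 and 59.8 CPM. It had 1593 reads in the Usp5-guide RIP, against 2547 in the control RIP, or 50.3 and 71.4 CPM. Its log2 ratio was 0.33 in the inputs (widened interval -0.39 to 1.07) and -0.51 in the RIP libraries (-0.91 to -0.11). Anxa6 had a mean log2 CPM of 5.99, just under 6, above which the larger scatter values applied. Intervals widened by those values would be wider and were not computed.

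The annexin with the most reads, Anxa2, forms a complex with S100a10 that binds plasminogen and its activator at the cell surface. It had 522 CPM in the Usp5-guide input, against 487 CPM in the control input, and 355 CPM in the Usp5-guide RIP, against 379 CPM in the control RIP. Anxa1, an anti-inflammatory annexin whose N-terminal part acts on formyl peptide receptors, had 251 and 244 CPM in the Usp5-guide and control inputs, and 112 and 97.0 CPM in the Usp5-guide and control RIP libraries. The guides thus gave nearly equal values, with log2 ratios in inputs and RIP libraries of 0.10 and -0.09 for Anxa2 and 0.04 and 0.20 for Anxa1.

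RIP over input was compared next, in each line and then over both lines. The lines are the cells with the Usp5 guide and those with the control guide, which share the parent line. Of the 9 annexins, 8 had a log2 RIP over input below 0 in Usp5-guide cells, where 49.0% of all genes did. In control cells 7 did, where 48.7% of all genes did, and 6 with library totals, where 41.5% of all genes did. Most of these values did not reach 2-fold, and that of Anxa3 in control cells was -0.03 with a counting interval of -0.07 to 0.01. The median over the 9 genes was -0.65 in Usp5-guide cells, where that of all genes was 0.02, and -0.37 in control cells, where that of all genes was 0.03. At 2-fold with the counting interval, Anxa1 and Anxa4 were lower in both lines, where 13.7% of all genes were lower in Usp5-guide cells and 15.0% in control cells. Both were also counted by the widened intervals, by which 6.37% of all genes were lower in Usp5-guide cells and 8.02% in control cells. Anxa11 was higher in Usp5-guide cells, where 15.9% of all genes were higher, but not by the widened interval (-1.93 to 10.65), by which 4.86% of all genes were. At a mean log2 CPM of 1 to 2, the range that holds Anxa11, 26.6% of genes were higher there by the counting interval and 0.95% by the widened one. No annexin was counted as higher in control cells, where 18.4% of all genes were, and 6.15% by the widened intervals. With library totals in place of TMM factors the split over all genes was 2432 higher and 1425 lower in Usp5-guide cells, in place of 2058 and 1771. In control cells it was 2958 and 1496, in place of 2375 and 1944.

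Over both lines, RIP was tested against input with edgeR's quasi-likelihood test on all 12920 genes, with fraction and line as terms and 1 residual degree of freedom. At a Benjamini-Hochberg adjusted p under 0.05, 5 of 9 annexins fell in the precipitate and 0 rose, where 11.3% of all genes fell and 10.2% rose. Over all genes this was 1461 that fell and 1321 that rose, and 969 and 1686 with library totals. The share depends on abundance: at a mean log2 CPM of 5 or more, the range of 7 of the annexins, 23.0% of 5126 genes fell and 18.9% rose. The 5 were Anxa1, Anxa2, Anxa4, Anxa5 and Anxa7. The calls on Anxa2 and Anxa7 were lost with library totals in place of TMM factors (adjusted p = 0.133 and 0.158) and with a filter of 10 reads (0.0568 and 0.0715), and that on Anxa7 also without the line term (0.0617). Each library was also left out in turn, with fraction as the only term (1 residual degree of freedom). Such a fit leaves 1 library alone in its fraction and sets libraries of different guides against each other. In these fits the log2 RIP over input ran from -1.35 to -1.15 for Anxa1 and from -1.33 to -1.04 for Anxa4. For Anxa8 it ran from -1.76 to 0.55. The call on Anxa5 was lost without the Usp5-guide RIP and without the control RIP. That on Anxa2 was lost without the same libraries, and that on Anxa7 without them and without the Usp5-guide input. Any effect of the guide on enrichment counts as error in these tests. With 1 residual degree of freedom, the p-values rest largely on spread pooled over all genes and little on that of each annexin.

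Anxa4, an annexin of epithelial cells known from plasma membrane repair, had the lowest adjusted p of the family. It had 4692 reads in the Usp5-guide RIP, against 10871 in the Usp5-guide input, or 148 and 353 CPM. In control cells it had 6490 reads in the RIP, against 11219 in the input, or 182 and 393 CPM. Both RIP libraries lay below both inputs. Its log2 RIP over input was -1.25 in Usp5-guide cells (widened interval -1.66 to -0.85) and -1.11 in control cells (-1.48 to -0.74). Over both lines it fell by 1.18 on the log2 scale, or 2.27-fold, with edgeR's adjusted p = 0.000436.

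Anxa1 was close to it. It had 3542 reads in the Usp5-guide RIP, against 7732 in the Usp5-guide input, or 112 and 251 CPM. In control cells it had 3460 reads in the RIP, against 6970 in the input, or 97.0 and 244 CPM. Again both RIP libraries lay below both inputs, and the 2 RIP libraries differed little. The log2 RIP over input was -1.17 in Usp5-guide cells (widened interval -1.65 to -0.69) and -1.33 in control cells (-1.83 to -0.84). Over both lines Anxa1 fell 2.38-fold (edgeR's adjusted p = 0.000523).

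Anxa5, which binds phosphatidylserine exposed on membranes, had 180 CPM in the Usp5-guide RIP, against 282 CPM in the Usp5-guide input, and 182 CPM in the control RIP, against 311 CPM in the control input. The RIP values of the lines were nearly equal and both lay under the inputs. Over both lines it fell 1.64-fold (edgeR's adjusted p = 0.00542). Anxa7, also called synexin, had 82.9 CPM in the Usp5-guide RIP, against 142 CPM in its input, and 89.7 CPM in the control RIP, against 116 CPM in its input, and fell 1.49-fold (edgeR's adjusted p = 0.0493). Anxa2 fell 1.37-fold (edgeR's adjusted p = 0.0265), with log2 values of -0.55 in Usp5-guide cells and -0.36 in control cells.

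The other 4 annexins did not pass the test. Anxa3 had a log2 RIP over input of -0.16 in Usp5-guide cells and -0.03 in control cells (edgeR's adjusted p = 0.668). For Anxa6 the values were -0.58 and 0.26 (adjusted p = 0.710). Anxa8 lay below its input in both lines, at -0.96 in Usp5-guide cells, just inside 2-fold, and at -0.38 in control cells (adjusted p = 0.138). Its widened interval was -1.64 to -0.27 in Usp5-guide cells and -1.69 to 1.13 in control cells, where it had fewer reads. Anxa8 was picked for counts that include those of the Usp5-guide input, so its value in Usp5-guide cells is not independent of that choice. Anxa11 had 1.67 and 0.27 (adjusted p = 0.671), and in Usp5-guide cells this rested on the 33 reads of the input.

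**Figure D4:**
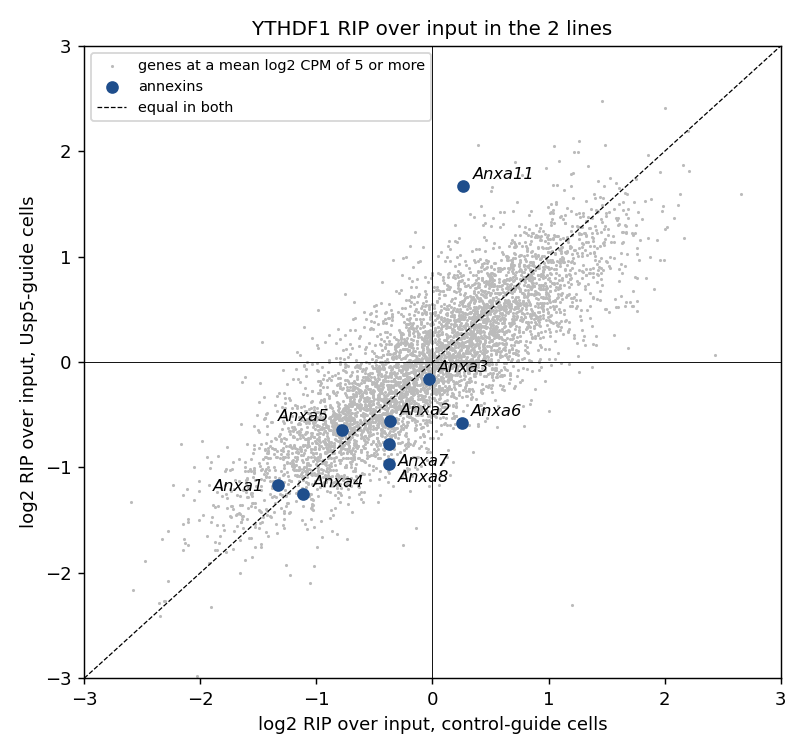
Log2 RIP over input in Usp5-guide cells (vertical) against control cells (horizontal), with the 9 annexins in blue, genes at a mean log2 CPM of 5 or more in grey and a dashed line where both are equal. Of the 5126 grey genes, 11 lie outside the window. Anxa1, Anxa4 and Anxa5 sit low on the dashed line, Anxa6 at 0.26 and -0.58 lies below it, and Anxa11 at 0.27 and 1.67 lies above it.

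Whether RIP over input differed between the lines was given by the ratio of the 2 enrichments, Usp5 guide over control. By the counting interval 1 annexin, Anxa11, was at least 2-fold higher and 0 were lower, where 13.3% of all genes were higher and 13.8% lower. At a mean log2 CPM of 1 to 2, the range that holds Anxa11, 27.4% of genes were higher and 29.4% lower. By the widened intervals 0 annexins were counted, where 4.16% of all genes were higher and 4.09% lower. These intervals are normal ones from the summed reciprocals of the 4 counts. The log2 ratio of enrichments was -0.58 for Anxa8 (widened interval -1.96 to 0.79), a value made of the guide ratios for which Anxa8 was picked. The interval held both no difference and a 2-fold lower enrichment, so these libraries do not settle whether its recovery with YTHDF1 differed. Among the annexins, only Anxa6 had a widened interval that excluded no difference, at -0.83 (-1.62 to -0.05), under 2-fold. This value ranked 2167th from the lowest of 12920 genes. The share of all genes with an interval that excluded no difference, at any fold, was not counted. At a mean log2 CPM of 5.99, Anxa6 just missed the larger widening used above 6. For Anxa1 to Anxa5 the ratios ran from -0.19 to 0.16, and that of Anxa7 was -0.40 (-1.23 to 0.43).

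The genes with the profile most like that of Anxa8 were found by the Euclidean distance between log2 CPM values over the 4 libraries, each centred on its mean. The nearest 5 of the 12920 genes lay at distances of 0.27 to 0.35, and all had lower levels, at mean log2 CPM of 0.28 to 2.66. The closest was ENSMUSG00000024845, with 441 reads in the Usp5-guide input, against 112 in the control input, and 248 reads in the Usp5-guide RIP, against 120 in the control RIP. The next was ENSMUSG00000073102, with 462 and 102 reads in the Usp5-guide and control inputs and 312 and 107 in the RIP libraries. No other annexin was close: the nearest, Anxa3, lay at 1.6 and ranked 1196th, and Anxa11 lay at 3.23. The measure rests on 4 libraries and on a gene picked for its pattern, so it is a description.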

How the data were processed

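The authors deposited raw read counts per Ensembl gene ID, 1 column per library. The submitters' processing notes name mm10, HISAT2 2.1.0 and featureCounts 1.6.3. How strand, multi-mapping reads and duplicates were handled is not given in the sources used here, nor is the annotation release, so reads of overlapping or similar genes may be shared or lost. Gene names came with the choice of the 9 IDs, since the RefSeq table (49997 genes) pairs 0 genes with Ensembl IDs. The lists of partner genes and cell markers, chosen by symbol, were therefore not used.

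TMM factors were computed over all IDs (edgeR 4.0.16, R 4.3.3): 1.060 for the Usp5-guide RIP, 0.969 for its input, 1.051 for the control RIP and 0.926 for its input. Log2 ratios had 0.5 counts added in proportion to library size. Depth gives a floor: 3 counts, which a count of 0 allows, equal 0.0841 to 0.105 CPM. DESeq2 1.42.0 served as an alternative. Widened intervals used counts divided by the scatter of their pair of libraries. The code was tested on simulated data. All 9 annexins are named in every comparison. The members and lists were chosen with earlier results of these data known.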

Additional observations from a re-analysis of the deposited data

Results flagged for a closer look

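Anxa6 had a log2 RIP over input of -0.58 in Usp5-guide cells and 0.26 in control cells, with counting intervals on either side of 0. Both widened intervals reached 0, at -1.13 to 0.00 in Usp5-guide cells and -0.32 to 0.88 in control cells. The difference itself, the ratio of enrichments, was -0.83 with a widened interval of -1.62 to -0.05. This value ranked 2167th from the lowest of 12920 genes. With 1 library per group it has an interval but was not tested against replicates. The interval used the smaller scatter values, which applied up to a mean log2 CPM of 6, and Anxa6 lay at 5.99.

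Between the guides, 3 annexins had RIP and input ratios on either side of 0 by their counting intervals: Anxa6 with -0.51 in the RIP libraries and 0.33 in the inputs, Anxa2 with -0.09 and 0.10, and Anxa7 with -0.11 and 0.29. How many of all genes did so was not counted, so the 3 cannot be read against a background. Counting intervals cover counting error only. Of these 6 ratios, that of Anxa6 in the RIP libraries had 0 outside its widened interval. Anxa6 lay at a mean log2 CPM of 5.99, just under 6, above which the widening was larger. The difference between the fractions is again the ratio of enrichments, whose widened interval left out 0 for Anxa6 and held it for Anxa2 (-0.19, interval -0.61 to 0.22) and Anxa7 (-0.40, interval -1.23 to 0.43). No replicates were there to test it.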

How the results depend on the processing

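Library totals, DESeq2 size factors, upper-quartile factors, mean CPM of at least 5, at least 10 reads, 2 counts added, 2-fold without an interval and widened intervals were tried. No annexin counted as higher or lower changed direction under any of these. With library totals, which move the median log2 RIP over input of all genes to 0.15 in Usp5-guide cells and 0.21 in control cells, Anxa4 in control cells was at -0.93, so 1 annexin was counted as lower there in place of 2, and 3 annexins in place of 5 passed edgeR's test. There Anxa3 was at 0.06 over both lines in place of -0.10 (adjusted p 0.791). With at least 10 reads, 3 annexins passed the test, where 1145 of 18511 genes fell. A mean CPM of at least 5 leaves out Anxa11, so 1 annexin was counted between the inputs and 0 for the ratio of enrichments. Widened intervals gave the same 1 and 0. Without the line as a replicate block, 4 annexins passed in place of 5, where 1215 of 12920 genes fell. With DESeq2's Wald test 5 annexins passed, where 1532 genes fell. No paired analysis of the guides was possible because each guide gave 1 lysate. With the line as a term, leaving out a library leaves no residual degrees of freedom for RIP over input. With fraction alone, an alternative chosen after seeing the data, 2 to 6 annexins passed when each library was left out in turn: 2 without either RIP library, 4 without the Usp5-guide input and 6 without the control input. In those fits Anxa3 ran from -0.28 to 0.10, Anxa6 from -0.42 to 0.08 and Anxa8 from -1.76 to 0.55. Across the other settings the adjusted p ran from 1.09e-10 to 0.00511 for Anxa1, from 8.1e-13 to 0.00591 for Anxa4, from 9.16e-05 to 0.0226 for Anxa5, from 0.00393 to 0.133 for Anxa2 and from 0.0175 to 0.158 for Anxa7. Of all genes, 1597 were higher and 1568 lower between the inputs by the counting interval, 2785 and 2832 with at least 10 reads, 658 and 630 at a mean CPM of at least 5, and 103 and 119 with widened intervals. Between the RIP libraries these were 588 and 599, 2116 and 2063, 109 and 115, and 74 and 80. For RIP over input they were 2058 and 1771, 4179 and 2811, 1101 and 993, and 628 and 823 in Usp5-guide cells, and 2375 and 1944, 4408 and 3070, 1399 and 1195, and 794 and 1036 in control cells. The ratio of enrichments gave 1716 and 1779, 738 and 789 at a mean CPM of at least 5, and 537 and 529 with widened intervals. In edgeR's test 969 genes fell with library totals, in place of 1461. With a library left out, 444 to 2424 fell and 249 to 2710 rose, in place of 1321 that rose. Depth limits Anxa11 most, whose input counts were 33 and 89 reads.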
